A study of Brassica napus with 12 samples.

Results

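The comparison described here set roots of Brassica napus that had received silicon (Si) for 1 week against roots that had not. It comprised 6 of the 12 libraries of the study, taken by their titles, with 3 libraries a group. All plants were wild type of the variety Citizzen, kept in a greenhouse with their roots in nutrient solution. Once leaf 4 had emerged, the Si plants received 1.7 mM Si as sodium metasilicate and the no-Si plants 3.4 mM NaCl, which matched the added sodium. Since NaCl added chloride to the no-Si plants alone, effects of chloride and of Si cannot be told apart. Planting is labelled 12 February for the no-Si roots and 21 March for the Si roots, and harvest 28 March for both, which for the Si roots does not match the stated growth protocol. Labelled date and Si supply cannot be told apart either. The design text speaks of biological replicates without saying how many plants each held, so p-values measure the spread between these libraries. The other 6 libraries, from mature leaves of the same 2 treatments, are used only for side-by-side values. Their labelled planting dates follow the same split, except that Si leaf replicate 3 carries 12 February. Whether same-numbered root and leaf libraries share plants is not stated in the labels, so leaf values are not taken as an independent repeat.

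Oilseed rape is an allotetraploid: each cell carries an A and a C subgenome, inherited from relatives of turnip and cabbage, so that most genes exist in an A copy and a C copy of similar sequence. Silicon reaches roots as dissolved silicic acid. In rice, an accumulator of Si, the channel Lsi1 and the efflux carrier Lsi2 move it into the root, whereas plants of the cabbage family take up little Si. The deposited identifiers carry the subgenome and chromosome of a gene (BnaA07 for A07, BnaC03 for C03) but no name or function, so the genes are described here by level, size of difference, spread and chromosome.

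The root libraries held 15616881 to 19330076 reads assigned to genes. Of 52962 identifiers, 44842 had a read in every root library, 4005 had none in any, and 42536 had enough reads to be tested. The labelled organ was checked with 1477 leaf-limited genes, those at 10 CPM (reads scaled to a common library total) or more in no-Si leaves and at least 16 times higher there than in no-Si roots (1 CPM added to both), which took 0.287% to 0.350% of the root reads against 29.6% to 33.6% of the leaf reads. The 913 root-limited genes took 7.22% to 8.22% of the root reads and 0.104% to 0.130% of the leaf reads. These lists were drawn partly from the same libraries, so the shares are a description. Reads were spread over many genes in roots: the 10 genes with most reads took 1.12% to 1.48% and the 1000 with most reads 21.6% to 23.5%.

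A single gene passed the test across all root genes. BnaA07g32570D, on A07, had 334, 345 and 294 reads in no-Si replicates 1 to 3 and 0, 4 and 0 reads in Si replicates 1 to 3. In CPM, from here on scaled with TMM factors, these were 19.0, 22.2 and 18.5 without Si and 0, 0.220 and 0 with Si, so the groups lay far apart. Mean levels were 19.9 ± 1.97 CPM in no-Si roots and 0.0732 ± 0.127 CPM in Si roots (SD, n = 3). The ratio of no Si to Si was 270.0, with a 95% interval of 105 to 993 that covers counting error only. No read of this gene fell on the opposite strand in any root library. On the log2 scale the fitted difference was −7.94, with an SE of 0.44 derived from the F statistic. With 0, 4 and 0 reads in the Si libraries this SE understates the uncertainty, as the interval from counting error alone is wider. By the quasi-likelihood test of edgeR the p of this gene after Benjamini-Hochberg adjustment was 0.00135. No other of the 42536 genes passed (0.00235% called). It was called again in each of the 6 subsets that left out 1 library, with log2 fold changes from −11.41 to −7.35. In leaves, too, it was near 0 with Si: 0.0297 ± 0.0515 CPM, against 16.8 ± 3.01 CPM in no-Si leaves (SD, n = 3).

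A search for other genes that were near 0 in all libraries of a group found few. At 5 or fewer reads in every library of one group and 20 or more in every library of the other, BnaA07g32570D was the only gene that was low with Si, and 0 genes were low without Si. With 10 or more reads in place of 20, 1 further gene was low with Si and 5 were low without it. They are named because they are so few, after their values were seen. BnaCnng12510D, on an unplaced C sequence, had 19, 13 and 15 reads without Si and 1, 4 and 2 with Si (log2 fold change −2.82, edgeR adjusted p = 0.193). In the other direction BnaC09g53580D had 5, 3 and 5 reads without Si and 31, 14 and 14 with Si (log2 fold change 1.99, edgeR adjusted p = 0.283), and BnaC07g17210D had 5, 0 and 5 against 28, 13 and 14 (log2 fold change 2.26, edgeR adjusted p = 0.356). BnaA03g13170D, BnaC05g42910D and BnaC06g34680D had 10 to 15 reads in each Si library and 0 to 5 in each no-Si library, too few to be tested.

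Below the called gene, 19 genes shared the next adjusted p of 0.103 by edgeR with Benjamini-Hochberg adjustment, 4 higher and 15 lower with Si. In all 19 the Si and no-Si libraries did not overlap, as in 13.2% of all tested genes, and DESeq2 called all 19. Selection by small p from these same counts largely fixes both results for the 19 genes. Their log2 fold changes ran from −2.09 to 1.75 with standard errors of 0.09 to 0.26, and 5 lay on C03, 4 on A09 and 3 on A03, which hold 7.75%, 6.40% and 6.87% of all tested genes. Counting up to an adjusted p of 0.2 by edgeR gave 77 genes, 23 higher and 54 lower.

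After BnaA07g32570D, BnaA09g08250D had the smallest p among genes lower with Si. Its level was 104, 90.5 and 106 CPM in no-Si roots and 49.0, 51.8 and 41.8 CPM in Si roots. All Si libraries were thus near 1 level, below every no-Si library, and the log2 fold change was −1.07 (SE 0.12; edgeR adjusted p = 0.103, DESeq2 adjusted p = 7.72e-11). Without no-Si replicate 3 edgeR called it, with a log2 fold change of −1.03 and an adjusted p of 0.0464. The other 5 subsets that left out 1 library did not, with edgeR adjusted p from 0.0806 to 0.454.

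Among genes higher with Si, BnaA03g22110D had the smallest p, at 3.24, 2.38 and 1.70 CPM in no-Si roots and 7.15, 8.78 and 8.84 CPM in Si roots. The log2 fold change was 1.75 (SE 0.23; edgeR adjusted p = 0.103, DESeq2 adjusted p = 7.76e-07). BnaC05g08120D followed, with 20.2, 19.7 and 21.4 CPM in no-Si roots and 42.2, 52.2 and 35.1 CPM in Si roots. Its no-Si libraries were nearly alike and its Si libraries spread over a wider range, with a log2 fold change of 1.08 (SE 0.15; edgeR adjusted p = 0.103, DESeq2 adjusted p = 1.07e-06). In leaves BnaA09g08250D and BnaA03g22110D were near 1 CPM or below in both treatments, and BnaC05g08120D had too few reads to be tested. Of the 19 genes at the adjusted p of 0.103, 12 were tested in leaves. The direction there was that of roots in 11 of the 12, and 3 had an unadjusted p under 0.05 by edgeR, against 4.09% of all leaf genes. As leaves and roots may share plants, these counts are a description.

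**Figure D1:**
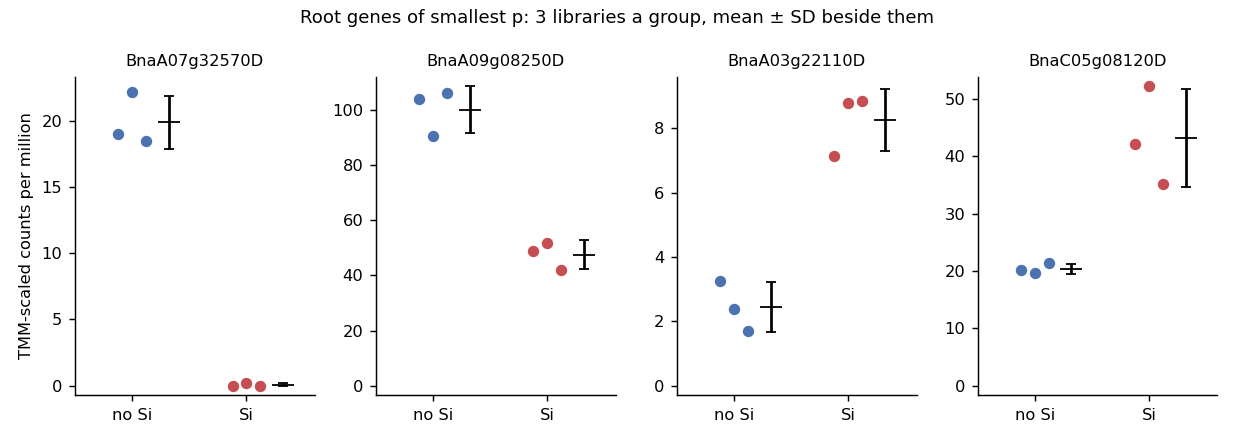
Levels of 4 root genes in each library (points; TMM-scaled CPM, linear axes that differ between panels), with the mean and SD of the 3 libraries beside each group. BnaA07g32570D is at 0.220 or less in every Si library, and in the other genes the Si and no-Si libraries do not overlap and the log2 fold changes are −1.07, 1.75 and 1.08.

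Most root genes differed little between the treatments. The median log2 fold change over all tested genes was 0.00 and the median size of it 0.13, with 95% of genes under 0.65. A difference of 2-fold or more was estimated for 630 genes (1.48%), 183 higher and 447 lower with Si. Such genes had few reads, with a median of 2.24 CPM for those higher and 3.17 CPM for those lower. In 217 of the 447 lower genes and 57 of the 183 higher genes the Si and no-Si libraries overlapped. For 92 of the lower genes the estimate shrank to under 0.5 on the log2 scale, or changed sign, when some single library was left out: for 57 without no-Si replicate 1 and for 34 without no-Si replicate 2. The same held for 11 of the 183 higher genes.

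The next largest differences after BnaA07g32570D show both kinds of pattern, and were picked after their values were seen. BnaA05g03440D had 2512, 220 and 50 reads without Si and 108, 2 and 16 reads with Si. Most of its reads came from no-Si replicate 1, the groups overlapped, and the log2 fold change of −4.56 had a standard error of 1.80 (edgeR adjusted p = 0.565). Leaving out single libraries moved its log2 fold change between −6.67 and −1.94. BnaC03g45470D stood at 4.66, 2.25 and 5.42 CPM in no-Si roots and 0.411, 0.549 and 0.119 CPM in Si roots. Here every Si library lay below every no-Si library, with a log2 fold change of −3.47 (SE 0.49; edgeR adjusted p = 0.112, DESeq2 adjusted p = 1.23e-07).

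Spread and difference both depended on how many reads a gene had. In genes with a mean of 1 to 10 CPM (17371 genes) the median SD between libraries on the log2 scale was 0.25 without Si and 0.21 with Si, and the median size of the log2 fold change 0.17. In genes with 10 to 100 CPM (22082 genes) these were 0.15, 0.12 and 0.10. The SD was larger among no-Si than among Si libraries in 59.7% of all genes and in 66.2% of the 1346 genes with 100 to 1000 CPM. CPM values are not divided by gene length, so these classes order genes by reads and not by transcript number.

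The balance of higher and lower genes differed between classes of read number. An unadjusted p under 0.05 by edgeR was reached by 3767 genes (8.86%), of which 1496 were higher (3.52%) and 2271 lower (5.34%). The surplus of lower genes depended on the scaling, with 1598 higher and 2108 lower genes under upper-quartile factors and 1752 and 1921 when only library totals were used. In genes with 1 to 10 CPM the shares were 3.74% higher and 4.22% lower, in genes with 10 to 100 CPM 3.45% and 6.20%, and in genes with 100 to 1000 CPM 2.60% and 7.73%. Of the 10 genes with over 1000 CPM, 0 reached it. The counts of higher and lower genes became 818 and 1342 without Si replicate 2, 959 and 1630 without no-Si replicate 2, and 2287 and 3031 without no-Si replicate 3.

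**Figure D2:**
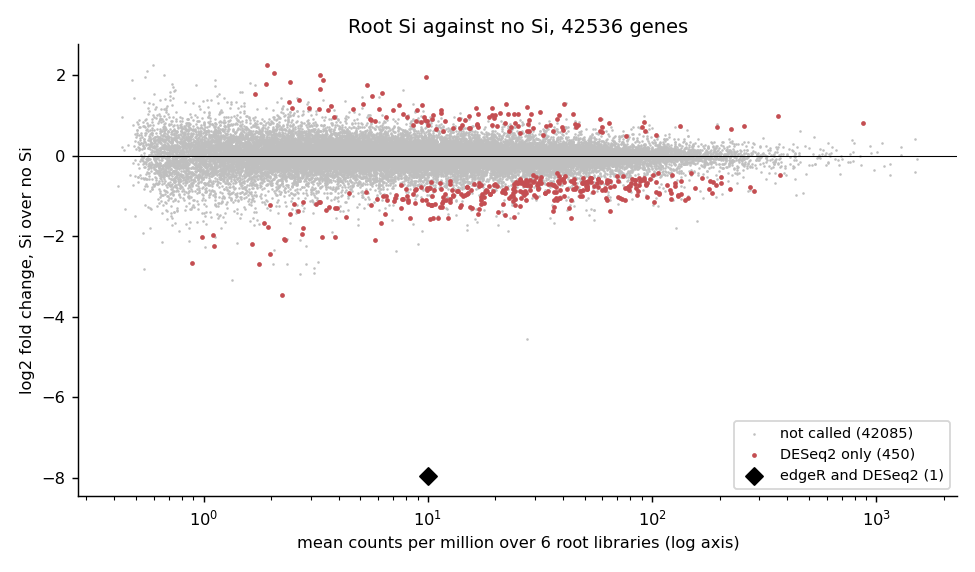
Log2 fold change of Si over no Si against mean CPM (log axis) for the 42536 root genes tested. Grey points were not called, the 450 red points were called by DESeq2 only, and the diamond is BnaA07g32570D, called by edgeR and DESeq2. The red points are more numerous below 0 (335) than above (115).

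**Figure D3:**
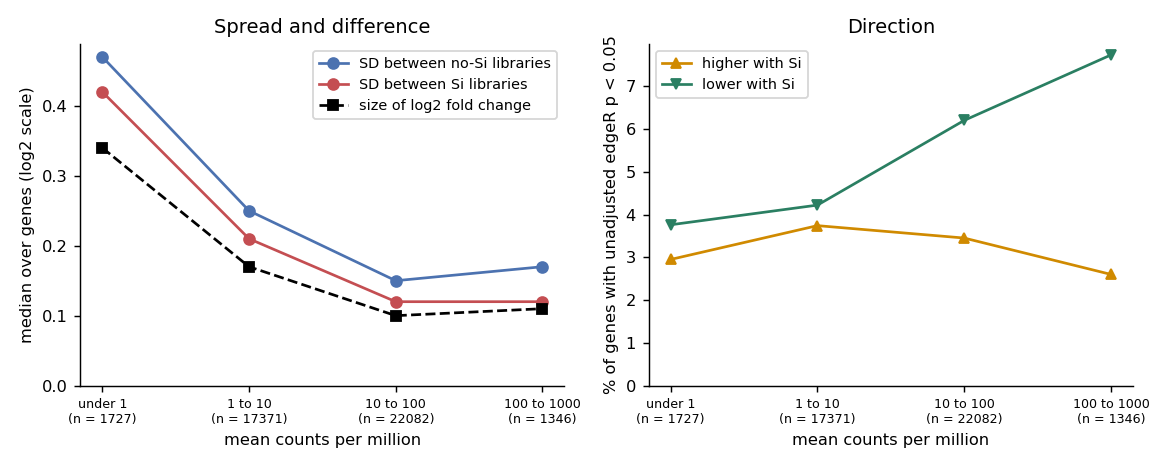
Left: median SD between the 3 libraries of each group and median size of the log2 fold change, by class of mean CPM; all 3 are largest in the class under 1 CPM, at 0.47, 0.42 and 0.34. Right: percent of genes higher or lower with Si at an unadjusted edgeR p under 0.05. The class of 10 genes with 1000 or more CPM is not drawn.

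DESeq2, run as an alternative, called 451 root genes (1.08% of those with an adjusted p), 115 higher (0.276%) and 336 lower (0.806%). All 451 also had an unadjusted p under 0.05 by edgeR, as 8.86% of all tested genes did, and their adjusted p by edgeR reached 0.475 at most. In 442 of them the Si and no-Si libraries did not overlap, as in 13.2% of all tested genes. Both counts rest on the same reads as the calls, which largely fixes them. Differences were mostly under 2-fold: the median size was 0.88 on the log2 scale, 165 genes reached 2-fold and 286 did not. The genes lower with Si had a median of 27.5 CPM and those higher 16.6 CPM. C03 held 52 of the 336 lower genes (15.5%) and 5 of the 115 higher genes (4.35%), where 7.75% of all tested genes lie on C03.

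The DESeq2 count depended on single libraries. It became 68 without Si replicate 2, 124 without no-Si replicate 2, 239 without Si replicate 3, 441 without no-Si replicate 1, 551 without Si replicate 1 and 1006 without no-Si replicate 3. Of the original 451 genes, 64 remained called without Si replicate 2 and 368 without no-Si replicate 3. Their direction by edgeR was kept in 451 of 451 genes in each of the 6 subsets, and 440 to 450 of them had an unadjusted p under 0.05 there, but each subset shares libraries with the full set.

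**Figure D4:**
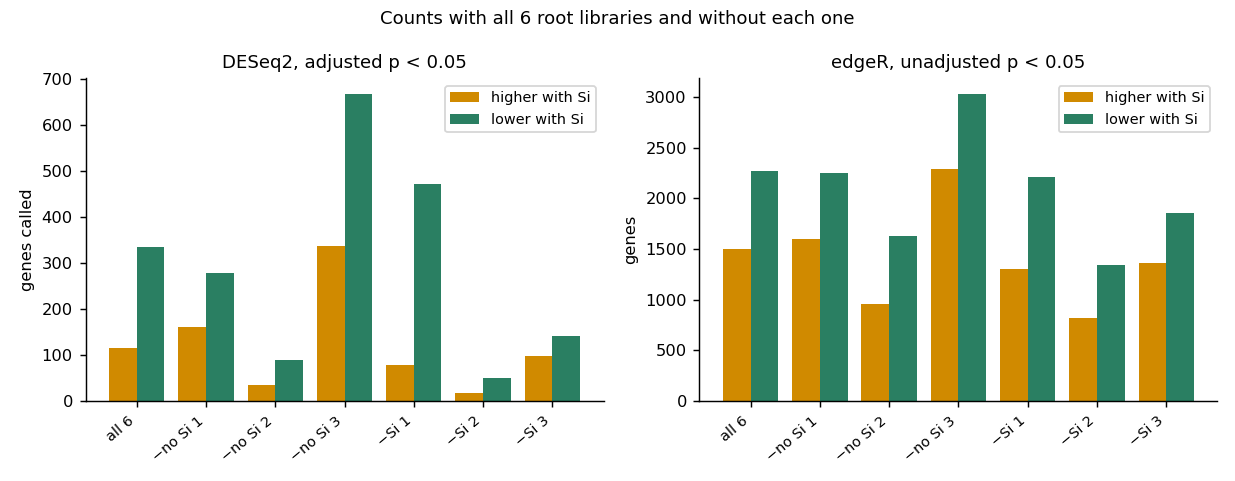
Number of root genes higher or lower with Si, by DESeq2 at an adjusted p under 0.05 (left) and by edgeR at an unadjusted p under 0.05 (right), with all 6 libraries and with each library left out (a minus sign marks it). Lower genes outnumber higher genes in each setting drawn, and the DESeq2 total runs from 68 to 1006.

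Without no-Si replicate 3, edgeR called 36 genes, 14 higher and 22 lower, in place of 1. The other subsets gave 4 calls (without no-Si replicate 1), 1 call (without Si replicate 2) and 2 calls each in the remaining 3 subsets. Of the 36 genes, 33 had been tested with all 6 libraries, and in 32 of these 33 no-Si replicate 3 was the no-Si library nearest to the Si side, which selecting genes by leaving that library out largely fixes. In 4 it reached into the range of the Si libraries. The 36 genes were spread over 16 of the chromosomes or unplaced groups, with 6 on C03, which holds 7.75% of all tested genes.

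The 3 genes of these 36 that had too few reads to be tested with all libraries showed an on and off pattern, and are named after their values were seen. They were selected by leaving out the no-Si library in which they were at or near 0, so they are given as counts with no test. BnaA04g13940D had 103, 92 and 0 reads in the no-Si root libraries and 0 in every Si root library. In leaves it had 121, 84 and 0 reads without Si and 0 in every Si library, so the pattern of the roots recurred. BnaCnng37690D had 118, 96 and 0 reads in no-Si roots and 0 in Si roots, with 7, 12 and 0 in no-Si leaves and 0 in Si leaves. BnaC03g71130D had 49, 48 and 1 reads in no-Si roots and 0 in Si roots, with 13, 21 and 0 in no-Si leaves and 0, 1 and 0 in Si leaves. For all 3 genes no-Si replicate 3 stood with the Si libraries and apart from the other no-Si libraries.

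A RefSeq table of another assembly (Da-Ae) lists 2287 of the identifiers as symbols, and pairs 1928 of the tested genes with a protein but gives no description of it. By edgeR, 69 of these genes had an unadjusted p under 0.05 and were higher with Si, and 108 were lower (9.18% together, against 8.86% of all tested genes), and DESeq2 called 5 higher and 16 lower (1.09% of the subset, against 1.06% of all tested genes). Both shares were near those of all genes. The 8 genes of smallest p in each direction whose groups did not overlap are described next. None of these 16 was called by edgeR. Selection by p and by no overlap in these same libraries favours DESeq2 calls among the 16, so such calls are not separate support.

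The 8 higher genes were BnaC01g35820D, BnaA08g27180D, BnaC05g01260D, BnaC05g41610D, BnaC06g32160D, BnaC05g07280D, BnaA07g29780D and BnaA09g15320D. Their log2 fold changes ran from 0.46 to 1.16 with standard errors of 0.12 to 0.26 (edgeR adjusted p 0.175 to 0.318), and DESeq2 called 3 of the 8. BnaC01g35820D had 108, 112 and 111 reads in no-Si roots and 266, 245 and 177 in Si roots, or 6.78 ± 0.558 and 12.6 ± 1.73 CPM (SD, n = 3), a log2 fold change of 0.89 (SE 0.15). Every Si leaf library was also above every no-Si leaf library, with means of 26.1 ± 1.94 and 19.2 ± 0.797 CPM, and the log2 fold change there was 0.44 (SE 0.13; edgeR adjusted p = 1.000). BnaC05g01260D stood at 3.01, 2.63 and 5.55 CPM in no-Si roots and 7.66, 8.45 and 8.96 CPM in Si roots (log2 fold change 1.16, SE 0.26). No-Si replicate 3 was the highest no-Si library of this gene, and without it edgeR called the gene (log2 fold change 1.56, adjusted p = 0.0408). The other 5 subsets did not call it, with edgeR adjusted p from 0.276 to 0.938. Of these 8 genes, 6 had enough reads to be tested in leaves. Only 3 of the 6 were also higher with Si there, and the leaf log2 fold changes ran from −0.78 to 0.44.

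The 8 lower genes were BnaC03g76620D, BnaA04g27560D, BnaA09g39040D, BnaC04g23900D, BnaA10g16480D, BnaC08g31200D, BnaC06g16210D and BnaAnng22550D. Their log2 fold changes ran from −1.14 to −0.56 with standard errors of 0.11 to 0.24 (edgeR adjusted p 0.193 to 0.283), and DESeq2 called all 8. BnaC03g76620D stood at 19.7, 19.3 and 21.1 CPM in no-Si roots and 12.4, 10.5 and 13.8 CPM in Si roots (log2 fold change −0.71, SE 0.13). BnaC08g31200D, the one with most reads, stood at 102, 117 and 91.8 CPM in no-Si roots and 76.1, 67.8 and 67.9 CPM in Si roots (log2 fold change −0.56, SE 0.12). All 8 were tested in leaves, where 7 were also lower with Si and the log2 fold changes ran from −2.17 to 0.11. There 0 of the 8 reached an unadjusted p under 0.05 by edgeR, where 4.09% of all leaf genes did. With so few genes a count of 0 is near that share.

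Among the 10 genes with most reads, over 1000 CPM each, the median size of the log2 fold change was 0.24, against 0.13 over all genes. Their spread was larger too, with a median SD of 0.21 without and 0.20 with Si, against 0.19 and 0.16 over all genes. The median standard error was 0.18, against 0.16 over all genes. BnaA04g24870D, the highest, stood at 1473, 1896 and 1358 CPM in no-Si roots and 1437, 1217 and 1776 CPM in Si roots (log2 fold change −0.09, SE 0.19; edgeR adjusted p = 0.945). BnaA07g37340D stood at 1765, 1911 and 1425 CPM in no-Si roots and 1341, 1024 and 1483 CPM in Si roots (log2 fold change −0.41, SE 0.18; edgeR adjusted p = 0.577). In both genes the groups overlapped. Over the 10 genes with most reads the log2 fold changes ran from −0.48 to 0.40, and 0 were called by edgeR or DESeq2.

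Of the 5 genes with most reads among those paired with a RefSeq protein, BnaA04g04370D had groups that did not overlap at 245, 129.8 and 199 CPM in no-Si roots and 271, 331 and 358 CPM in Si roots. Its log2 fold change was 0.74 (SE 0.22; edgeR adjusted p = 0.373, DESeq2 adjusted p = 0.0438). BnaA01g30200D did not overlap either, at 132, 136 and 132 CPM in no-Si roots and 151, 144 and 137 CPM in Si roots, with a log2 fold change of 0.11 (SE 0.10; edgeR adjusted p = 0.840). In BnaA02g05040D, BnaA06g13740D and BnaC05g15160D the groups overlapped, with log2 fold changes of 0.16, −0.29 and −0.54.

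The largest spread within groups, among genes of at least 10 CPM, came with 1 library at or near 0. BnaA08g00370D had 162, 0 and 182 reads in no-Si roots and 308, 129 and 299 in Si roots. BnaC02g42720D had 622, 1 and 201 reads in no-Si roots and 259, 271 and 285 in Si roots. In both genes no-Si replicate 2 was at or near 0, and the SD on the log2 scale was 4.32 and 4.36 among no-Si libraries against 0.72 and 0.18 among Si libraries. Neither was called, with edgeR adjusted p of 0.884 for BnaA08g00370D and 0.993 for BnaC02g42720D. No-Si replicate 2 was also the library with most genes at 2-fold or more from the median of the other 5, with 567 above and 854 below, of 40809 genes with a mean of at least 1 CPM. Si replicate 1 had the fewest, with 119 above and 119 below.

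By chromosome, C03 stood apart from the others in these counts. By edgeR at an unadjusted p under 0.05, 46 of its 3297 tested genes were higher with Si and 379 lower, so that 11.5% were lower, against 5.34% of all genes. The median over C03 was −0.11 on the log2 scale, and those of the other 18 numbered chromosomes lay between −0.02 (C01) and 0.05 (A01). The Si and no-Si libraries did not overlap in 61 C03 genes that were higher and 549 that were lower. Over all genes these numbers were 2669 (6.27%) and 2949 (6.93%), and outside C03 they were 2608 and 2400, so the surplus of lower genes by this count lay on C03. By unadjusted p, lower genes remained more numerous outside C03, with 1450 higher and 1892 lower.

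The C03 difference was uneven along the chromosome and between libraries. In the first 300 tested genes, from BnaC03g00010D to BnaC03g06550D, 76 were lower and 2 higher, with a median log2 fold change of −0.21. Si replicate 1 stood alone among the Si libraries there, at −0.26 relative to the mean of all 6 root libraries, with Si replicates 2 and 3 at −0.03 and −0.05. The median log2 fold changes of the later blocks of about 300 genes ran from −0.15 to −0.05. On the same scale the median gene of the whole chromosome stood at log2 0.07, −0.03 and 0.14 in no-Si replicates 1 to 3 and at −0.06, −0.03 and −0.05 in Si replicates 1 to 3. No-Si replicate 2 thus lay with the Si libraries. No-Si replicate 1 was at 0.12 to 0.18 in blocks 1 to 6 and at −0.04 to 0.01 in blocks 7 to 11. In these last 5 blocks no-Si replicate 3, at 0.13 to 0.19, was the library that stood apart, so the difference there rests on 1 library. Without no-Si replicate 3 the C03 median of the log2 fold change was −0.06, and without no-Si replicate 2 it was −0.15. C09 medians moved as widely between libraries of the same treatment, at −0.01, −0.07 and 0.07 without Si and −0.01, −0.05 and 0.10 with Si. The pooled SD of the library medians within groups was 0.0736 on C09 and 0.0628 on C03. Genes of 1 chromosome thus moved together in single libraries, so their counts are not counts of separate responses.

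Smaller imbalances of the opposite sign were seen on A01, where edgeR gave 97 higher and 65 lower genes at an unadjusted p under 0.05. The same held on C07, with 97 and 81, and on C04, with 87 and 78. On C02, with 72 and 68, and on C06, with 73 and 71, the counts were nearly equal. DESeq2 called 2 higher and 8 lower genes on A01, 7 and 5 on C07 and 7 and 19 on C04. It called 8 and 8 on C02 and 4 and 9 on C06. On C04 the library medians lay between −0.02 and 0.03. On A01 and C07 no-Si replicate 1 was the lowest library, at a median of −0.07 on A01 and −0.10 on C07, while the other 5 libraries lay between 0.00 and 0.03 on A01 and between 0.01 and 0.04 on C07. By edgeR at an unadjusted p under 0.05, C01 had 39 genes higher and 113 lower, and there no-Si replicate 1 was the highest library, at 0.08. By subgenome and the same measure, 785 A genes were higher (3.78%) and 1031 lower (4.96%), and 707 C genes were higher (3.26%) and 1236 lower (5.70%). Without C03 the C genes numbered 661 higher (3.59%) and 857 lower (4.66%).

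**Figure D5:**
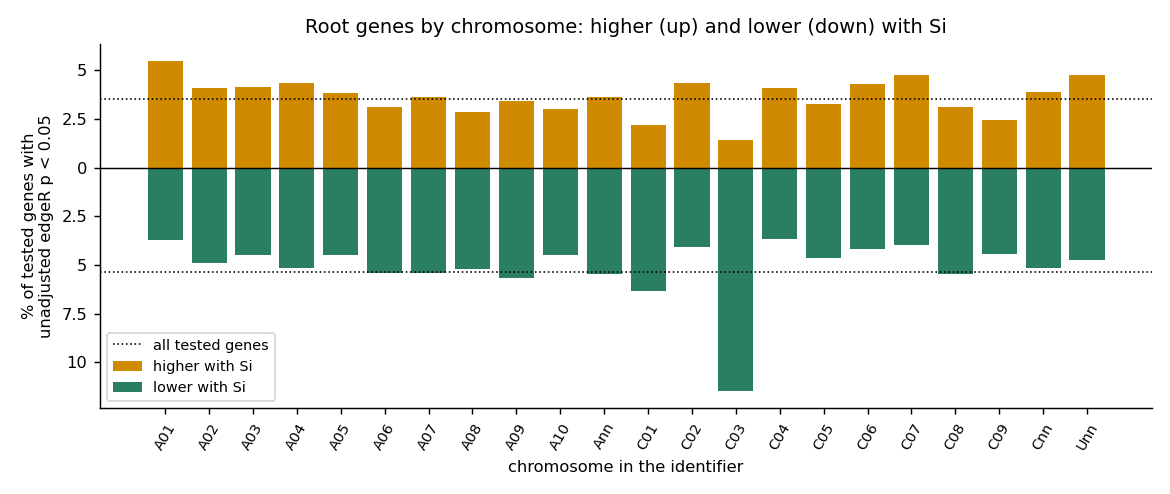
Percent of the tested root genes of each chromosome that were higher (bars above 0) or lower (bars below 0) with Si at an unadjusted edgeR p under 0.05; dotted lines mark all tested genes (3.52% and 5.34%). Ann, Cnn and Unn are genes without a chromosome. C03 reaches 11.5% lower genes.

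Library composition was compared over 9 measures. Unmapped reads made up 6.57%, 7.04% and 6.94% of the no-Si root libraries and 8.15%, 8.20% and 9.51% of the Si root libraries, so that every Si library was higher (two-sided exact permutation test, p = 0.100, with no smaller p possible for 3 against 3 libraries; 0.900 after Benjamini-Hochberg adjustment over the 9). In the other 8 measures the groups overlapped, among them the share of reads in C genes (51.1 ± 0.709% without and 50.9 ± 0.449% with Si; SD, n = 3) and the number of genes with a read (46637 to 47006 per library). The share of reads on the opposite strand was 0.677% in Si replicate 3 and 0.389% to 0.479% in the other 5 root libraries.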

How the data were processed

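Per the labels' protocols, poly(A) RNA was made into stranded, paired-end TruSeq libraries. For each gene the authors deposited whole-number counts of either strand, the forward and the reverse strand. Unmapped, multimapping, outside-gene and ambiguous reads stand in 4 separate rows, per the file headers, and entered no library size or test. In roots they made up 6.57% to 9.51%, 8.39% to 9.10%, 13.4% to 14.7% and 0.108% to 0.118% of a library. The submitters' processing notes list TopHat2 and Bowtie2, with neither role nor version. Which genome build, annotation and counting program were used is not given in the sources used here. Near-identical A and C copies can lose or exchange reads, which makes the counts of either copy uncertain.

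The reverse column was used as the sense count. Si was compared with no Si over the 6 root libraries with edgeR 4.0.16 (R 4.3.3; filterByExpr, TMM factors, robust quasi-likelihood fit, two-sided test), adjusted by Benjamini-Hochberg over 42536 genes, with a threshold of 0.05. Standard errors were derived from the F statistic and understate the uncertainty where a group is near 0. CPM and log2 CPM (prior count 1) describe levels and spread. All replicate pairs differed by more than sampling noise (chi-square per degree of freedom 5.55 to 14.8). As alternatives served limma 3.58.1 (voom), DESeq2 1.42.0, further scalings, filters and strand columns, a replicate block, all 12 libraries, and each library left out. The tests were also run on simulated counts as a check of the code. Those counts were drawn gene by gene, so the check does not cover the shifts of single libraries described above.

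Named genes are the edgeR calls, the 2 of smallest p in each direction, up to 8 in each direction with a RefSeq protein, unadjusted p under 0.05 and no overlap of groups, the 2 genes with most reads and the 5 with most reads and a RefSeq protein, and the 2 of largest spread at 10 CPM or more. Others are said to be named after their values were seen. The 26 keyword lists for gene functions and organ markers could not be used, since 0 identifiers were paired with a description. The genes and lists were chosen with earlier results of these data known.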

Additional observations from a re-analysis of the deposited data

How the results depend on the processing

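The count of genes called by edgeR in roots was 1 under each planned scaling, filter and strand column, with limma-voom, the non-robust fit and all 12 libraries, and 451 with DESeq2. Leaving out 1 library gave 1 to 36 calls by edgeR and, by DESeq2, 68 to 1006 (124 without no-Si replicate 2, 239 without Si replicate 3). Genes with an unadjusted p under 0.05 ran from 818 to 2287 (higher) and from 1342 to 3031 (lower) without single libraries, and with all 12 libraries in the fit 1386 were lower. The C03 median of the log2 fold change ran from −0.15 to −0.06 without single libraries. Same-numbered Si and no-Si libraries had deviations that correlated at 0.07, 0.07 and 0.19, and those of unlike number at −0.22 to 0.13. Not each library correlated best with its own number. With 3 libraries a group these values cannot decide whether same-numbered libraries were paired. The main fit therefore used no pairing, and the replicate block served as an alternative. With the replicate block 1 gene was called, an unadjusted p under 0.05 was reached by 1690 higher and 2459 lower genes, and BnaC02g42720D had a log2 fold change of 0.59 in place of −0.10. That gene also changed sign with limma-voom (1.98) and without no-Si replicate 1 (1.23), with a range of −0.68 to 1.23 without single libraries. BnaA04g24870D changed sign without Si replicate 2 (0.03) or no-Si replicate 2 (0.06), in a range of −0.25 to 0.06, and BnaA02g05040D without Si replicate 3 (−0.02), in a range of −0.02 to 0.30. The difference in opposite-strand share was −0.0540 percentage points without Si replicate 3, against 0.0354 with it and up to 0.0901 without Si replicate 1. The cause of these shifts was not tested. The DESeq2 subsets, the subsets for the shares of unmapped and opposite-strand reads, and the all-library and non-robust fits for counts of unadjusted p were chosen after seeing the data. Few reads limit the precision per gene, with a median standard error of 0.42 on the log2 scale under 1 CPM, against 0.13 from 10 to 100 CPM.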
